A study of Mus musculus with 2 samples.

Results

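The exhaustion-linked transcription factors described here are Tox, Tox2, Eomes, Prdm1, Batf and Maf, 6 of the 21877 genes named in the authors' annotated array table. They were taken by gene symbol. Each has 1 probe set, so no choice between probe sets was needed. Expression was measured in mouse CD8 T cells cultured with type 1 (Tc1) cytokines, in 1 array of cells that also received cholesterol and 1 array of untreated cells. Tc1 cytokines were common to both cultures. The sources used here do not give the mouse strain, tissue of origin, number of animals or cytokines, nor the dose, vehicle or duration of the cholesterol treatment. Each group is 1 array, so the differences carry no replicate error and no p-value, and precision is limited by the number of arrays.

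CD8 T cells that meet antigen for a long time can enter exhaustion, a state of lasting inhibitory receptor expression and reduced effector function. TOX, an HMG-box DNA-binding protein induced by calcium and NFAT signalling, sets up much of that state, and TOX2 is a close relative that acts with it. Eomesodermin (EOMES) is a T-box factor of effector, memory and exhausted CD8 cells. BLIMP-1, encoded by Prdm1, is a zinc finger transcriptional repressor that promotes terminal differentiation, BATF is a short bZIP protein that binds DNA with JUN and IRF4, and c-MAF, encoded by Maf, is a larger bZIP factor linked to interleukin 10 and inhibitory receptors. All of them also act in normal activation, so their level by itself does not define exhaustion.

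The cells carried T cell transcripts. All 7 measured T cell markers, Cd8a and Cd8b1 among them, lay above the negative control probe sets on both arrays, with summed signals of 19072 with cholesterol and 16431 without. All 7 were higher with cholesterol, with a median log2 difference of 0.21, where 58.6% of the genes past the brightness filter described below were higher. Whether this shift has a part in the differences of the factors was not tested. The largest differences among the T cell markers were 0.46 (Cd3d), 0.31 (Cd8b1) and 0.26 (Cd3g), and Trac had no matching symbol. Signals are the authors' linear units, and ran from 3.74 to 11607 on the cholesterol array and from 3.24 to 10801 on the untreated array. The 95th percentile of the 5222 negative controls, used here as the limit of a measurable level, was 121.8 with cholesterol and 130.3 without. Differences are log2 of the cholesterol signal minus log2 of the untreated signal.

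Eomes was lower with cholesterol, Tox and Batf were slightly higher, and Tox2, Prdm1 and Maf were no brighter than the negative controls reach on either array. All 6 passed the brightness filter, which asks that the brighter array reach 47.4, the median of all gene-level values. In the deposited signals 3 factors were higher and 3 lower. None was more than 1.5-fold higher, where 3.22% of the 11327 genes past the filter were, and 1, Eomes, was more than 1.5-fold lower, where 2.72% of those genes were. These counts take the signals as they stand. Where a signal within the control range is replaced by the control limit, which turns the fold into a lower bound, 1.17% of the genes were past 1.5-fold higher and 0.671% lower, and Eomes was still the 1 factor lower. Of all genes past the filter, 58.6% were higher by any amount and 40.4% lower. The median log2 difference of the 6 was 0.08 and their mean -0.03, beside a median of 0.05 over the 11327 genes. The 6 factors thus did not share a direction, and their median lay close to that of all genes. Over the 3 factors above the negative controls on both arrays, a subset chosen after seeing the data, the median was 0.21. Of these, Tox and Batf were higher and Eomes lower.

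**Figure D1:**
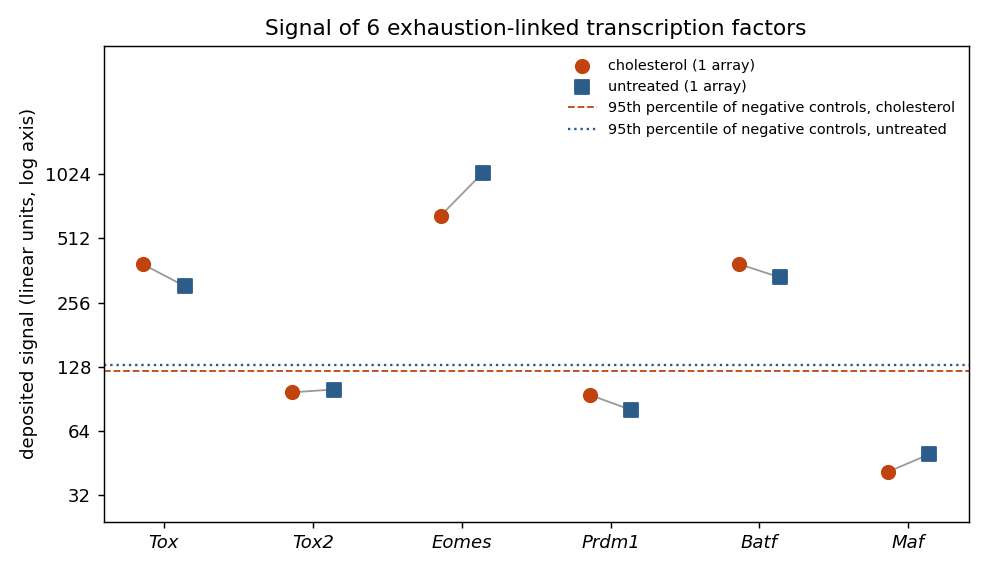
Deposited signal of each factor on a log2 axis, with the cholesterol array (circle) left of the untreated array (square) and dashed and dotted lines at the 95th percentile of the negative controls of each array (121.8 and 130.3). Tox, Eomes and Batf lie above the lines on both arrays, Tox2, Prdm1 and Maf below them, and Eomes shows the widest gap.

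Eomes had a signal of 655.2 with cholesterol and 1037.9 in untreated cells. The cholesterol signal was 5.38 times the negative control percentile of its array, and the untreated signal 7.97 times. The brightest 1% of the negative controls reached higher still, and against their 99th percentile (855.1 with cholesterol and 916.9 without) Eomes lay above on the untreated array alone. The log2 difference was -0.66, a 1.58-fold lower level. In a bulk sample such as this, fewer cells with the transcript and less transcript per cell cannot be told apart.

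The size of this difference can be set beside the 400 genes nearest to Eomes in mean log2 signal, whose mean signals ran from 731.0 to 926.9. Their differences had a median of 0.05 and a central 95% from -0.40 to 0.46. Of the 400, 5 lay lower than Eomes and 395 higher, and 7 differed by more in either direction. Only 9 of the 400, 2.25%, were past 1.5-fold in either direction. The 5 genes below Eomes, picked out after their values were seen, were the cytokine genes Lif (-1.39) and Lta, lymphotoxin alpha (-1.18), the MHC class II chaperone gene Cd74 (-1.20), the metalloprotease gene Adam8 (-0.81) and the desaturase gene Fads2 (-0.72). Such a position describes this pair of arrays and is not a p-value.

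Among transcription factors Eomes also stood near the lower end. The authors' table assigns sequence-specific transcription factor activity to 871 genes, of which 293 lay above the negative controls on both arrays. With Tox, which the table does not annotate so, these made 294 genes with a median difference of 0.07 and a central 95% from -0.51 to 0.48. Eomes ranked 3 from the lowest, after Nr4a3 (-1.02) and Egr3 (-0.71). The Egr3 value is that of a probe set whose identifier marks it as unmapped, and its other probe sets lay within the control range. Of the 294, 4 were more than 1.5-fold higher and 6 more than 1.5-fold lower. Over all genes past the filter, which include dimmer ones, the shares were 3.22% and 2.72%.

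The other T-box factors at a measurable signal did not share the difference. T-bet, encoded by Tbx21 and the factor closest to EOMES in effector CD8 cells, had a signal of 267.1 with cholesterol and 247.7 without, a log2 difference of 0.11. The Eomes difference minus the Tbx21 difference was -0.77. Mga, a large T-box protein that pairs with MAX, had signals of 485.5 and 472.7 in the same order, a difference of 0.04 that turned negative after quantile normalization and loess. The other 14 of the 17 measured T-box genes, most of which act in embryonic patterning, lay within the control range on both arrays.

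Genes that T-box factors are known to drive did not all follow Eomes. Of 10 measured effector genes, 9 passed the filter, 3 of them higher and 6 lower, with a median of -0.41. Of the 9, 4 were more than 1.5-fold lower, also with bounds for signals in the control range. Over all genes past the filter, 40.4% were lower, 2.72% more than 1.5-fold lower (0.671% with bounds), and the median was 0.05. The effector genes on the higher side were Cxcr3 (0.39), Klrg1, within the control range on both arrays, and Il2rb. Ifng, interferon gamma, had a signal of 81.5 with cholesterol, within the negative control range, and 323.2 without, which is at least 2.65-fold lower. Gzma, granzyme A, had 864.7 with cholesterol and 1677.7 without, a difference of -0.96, and Prf1, perforin, differed by -0.77. Il2rb, the interleukin 2 receptor beta chain that EOMES activates in CD8 cells, had signals of 5296 with and 5239 without cholesterol, a difference of 0.015 that turned negative after quantile normalization and loess. Gzmb differed by -0.08.

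Eomes is also made by natural killer cells, and summed markers of natural killer cells, B cells and macrophages were lower in the cholesterol culture. Of 6 natural killer markers, 5 (Ncr1, Klrb1c, Klra8, Klra4 and Klre1) were within the control range on both arrays. The sum of all 6 was 1027 with cholesterol and 1859 without, most of it from Gzma, which effector CD8 cells make too. B cell and plasma cell markers summed to 530.1 with cholesterol and 826.2 without, with 7 of 9 inside the control range on both arrays, and Cd79a at least 2.06-fold lower. Cd79b, the only one above the controls on both arrays, had 148.6 with cholesterol and 187.0 without, a difference of -0.33. Macrophage and dendritic cell markers summed to 1196 and 2155 in the same order, with 11 of 14 inside the range. Most of that sum came from the MHC class II genes Cd74 (2.29-fold lower) and H2-Aa (1.85-fold lower), while Cd68, the other marker above the controls on both arrays, had 181.4 with cholesterol and 144.9 without, a difference of 0.32. CD4 T cell markers summed to 2505 with cholesterol and 2565 without, which joins Cd4 at -0.62 and Ctla4 at 0.36. Il2ra (-0.11) and Zbtb7b (-0.01) were also above the controls on both arrays, and Foxp3 and Cd40lg were within their range. Granulocyte and mast cell markers summed to 389.4 with cholesterol and 392.2 without. That last sum joins opposite differences, with the mast cell protease gene Cpa3 at 45.9 with cholesterol and 135.5 without, at least 1.11-fold lower, and Kit at 283.0 and 190.8 in the same order, a difference of 0.57. Their part in the Eomes difference was not tested.

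The genes closest to Eomes in both log2 signals, by Euclidean distance over the 2 arrays, were Fdft1, which encodes squalene synthase (distance 0.031), Fads2 (0.045) and Slamf7, a receptor of the SLAM family (0.14). Fdft1 had signals of 666.7 with cholesterol and 1025 without. A match over 2 arrays says only that these probe sets were about as bright and differed by about as much.

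The Eomes promoter is shown because Eomes is the factor with the difference, and those of Batf and Prdm1 as the other members on the same reference table with a single entry each. The sequences are the 250 bases before the transcription start in the RefSeq annotation of GRCm38.p6, written 5′ to 3′ on the strand of the gene. They lie at chr9:118477939-118478188 on the plus strand for Eomes, chr12:85686470-85686719 on the plus strand for Batf and chr10:44458749-44458998 on the minus strand for Prdm1. Capitals mark matches on either strand to 6 words: TGANTCA (AP-1 with the middle base left free), GGAAA (the NFAT core), TCACACC (a T-box site), TCACNCCAC (a sterol regulatory element), CCAAT and TATAAA. The free base makes TGANTCA looser than the AP-1 site that BATF with JUN binds.
Eomes: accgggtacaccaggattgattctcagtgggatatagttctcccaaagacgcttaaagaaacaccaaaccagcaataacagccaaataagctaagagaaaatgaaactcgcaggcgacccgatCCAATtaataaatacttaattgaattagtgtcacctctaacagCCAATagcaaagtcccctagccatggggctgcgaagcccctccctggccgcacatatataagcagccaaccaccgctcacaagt
Batf: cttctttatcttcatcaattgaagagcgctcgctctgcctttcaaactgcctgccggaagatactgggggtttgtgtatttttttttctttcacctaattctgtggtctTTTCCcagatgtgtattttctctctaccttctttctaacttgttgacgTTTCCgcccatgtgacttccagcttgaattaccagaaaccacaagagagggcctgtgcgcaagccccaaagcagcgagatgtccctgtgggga
Prdm1: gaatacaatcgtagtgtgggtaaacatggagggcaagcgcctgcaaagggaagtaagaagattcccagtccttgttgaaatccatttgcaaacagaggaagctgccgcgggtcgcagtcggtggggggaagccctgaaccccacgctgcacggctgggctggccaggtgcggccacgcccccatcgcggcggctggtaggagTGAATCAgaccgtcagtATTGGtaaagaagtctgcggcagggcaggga

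The Eomes window held CCAAT from 127 to 123 and from 84 to 80 bases before the start, and none of the other 5 words. Only words spelled as given were marked, so the stretch tatataag in the Eomes window, which resembles TATAAA, was not counted. The Batf window held the reverse of GGAAA from 141 to 137 and from 93 to 89 bases before the start. The Prdm1 window held TGAATCA from 48 to 42 bases before the start and the reverse of CCAAT from 31 to 27. With A as its middle base, TGAATCA matches only the looser word. Over the 32851 RefSeq windows of the same length, TGANTCA occurred in 6.75%, GGAAA in 55.6%, TCACACC in 3.33%, TCACNCCAC in 1.05%, CCAAT in 33.8% and TATAAA in 12.4%. A sterol regulatory element word with A at its free position overlaps the T-box word. These letters describe the windows, and no binding was measured. Of the 6 factors, 4 matched the promoter table. Tox2 has several start sites there and is not shown, and Tox and Maf had no entry.

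Tox had a signal of 387.0 with cholesterol and 305.8 in untreated cells. Both lay above the negative controls, at 3.18 and 2.35 times the percentile of their arrays. The log2 difference was 0.34, a 1.27-fold higher level. Among the 400 genes of like signal, with a median of 0.11 and a central 95% from -0.34 to 0.60, 336 lay below Tox and 64 above it. The Tox difference was therefore inside the spread of genes as bright as it. In the ranking of the 294 genes it was 25 from the highest.

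Tox2 had 97.0 with cholesterol and 100.1 without, a log2 difference of -0.04 at a signal the negative controls also reach. Of its 400 neighbours in signal, 147 lay below it and 253 above. No fold is given, because both arrays are within the control range. Under the other scalings the difference ran from -0.08 to -0.01 and so stayed close to 0. The nearest genes in both signals were Mllt11 (distance 0.0085), Myl10 (0.013) and Enthd1 (0.017), all inside the control range too.

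In the rest of the TOX family, Tox4, a broadly expressed member that forms part of a phosphatase complex, had 1099 with cholesterol and 982.0 without, a difference of 0.16. Tox3 (0.51), best known from breast and brain, had signals of 23.2 and 16.3 in that order, far inside the negative control range. The Tox difference exceeded that of Tox4 by 0.18 and that of Tox2 by 0.38 on the log2 scale. The nearest genes to Tox in both signals were Mettl9, a histidine methyltransferase gene (distance 0.013), Tiprl, an interactor of PP2A-type phosphatases (0.017), and Tmc6, a transmembrane protein gene (0.026).

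**Figure D2:**
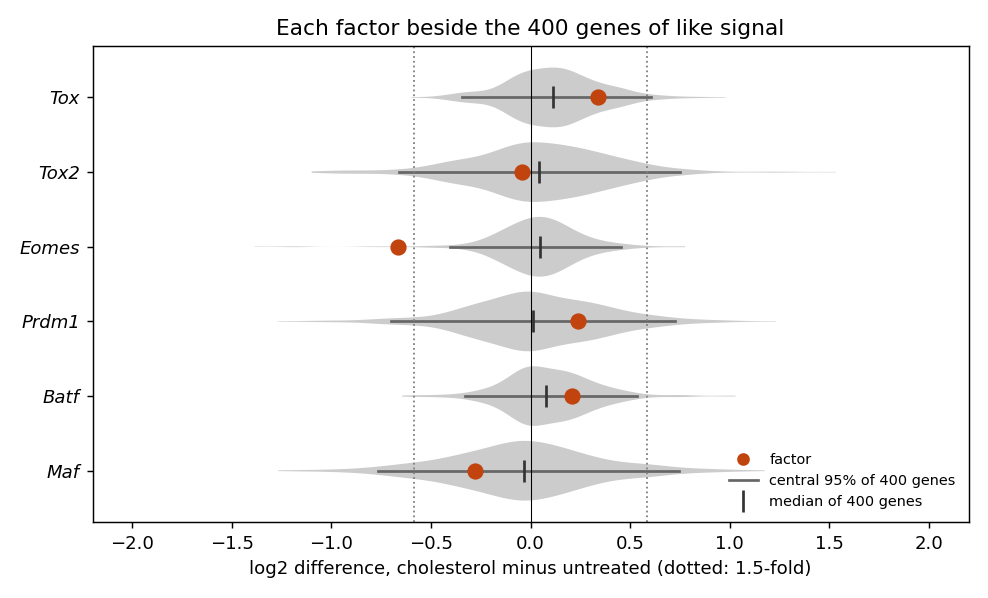
Log2 difference (cholesterol minus untreated, x axis) of each factor (orange point) over the 400 genes nearest to it in mean signal (grey shape), with their median (tick) and central 95% (line) and dotted lines at 1.5-fold. Eomes lies left of the central 95% of its neighbours (-0.40 to 0.46), while the other 5 factors lie inside theirs.

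Factors that act upstream of or beside TOX were mostly lower. Of 8 measured NFAT, NR4A and EGR genes, all past the filter, 2 were higher and 6 lower, with a median of -0.22. Of the 8, 2 were more than 1.5-fold lower. Over all genes past the filter, 40.4% were lower, 2.72% more than 1.5-fold lower, and the median was 0.05. Nr4a3, a nuclear receptor gene induced by calcium and NFAT, had 688.9 with cholesterol and 1397.4 without, a difference of -1.02, and stood 1.36 below Tox in log2 difference. Egr3 and Egr2, zinc finger genes of antigen receptor signalling, differed by -0.71 and -0.51. The 3 probe sets of Egr3 did not share a direction, at -0.71, -0.49 and 0.14, of which the last 2 were within the control range on both arrays. The identifiers of those at -0.71 and 0.14 mark them as unmapped. The NFAT genes themselves, named after their values were seen, differed by 0.09 (Nfatc1), -0.09 (Nfatc2) and 0.25 (Nfatc3). NFAT activity depends on nuclear entry, which arrays do not measure.

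Inhibitory receptors, which exhausted cells carry and TOX is known to promote, were 6 of 8 higher, with a median of 0.35, beside 58.6% higher and a median of 0.05 over all genes past the filter. Lag3 had 512.5 with cholesterol and 294.3 without, a 1.74-fold higher level, and Pdcd1, which encodes PD-1, had 406.3 and 318.8 in the same order, a difference of 0.35. Havcr2, which encodes TIM-3, had 96.5 with cholesterol and 168.8 without, at least 1.39-fold lower, and Entpd1, which encodes the ectonucleotidase CD39, differed by -0.69. Of the 8 receptors, 1 was more than 1.5-fold higher, where 3.22% of all genes past the filter were. By signal, 2 of the receptors were more than 1.5-fold lower, where 2.72% of those genes were. The bound for Havcr2 is under 1.5, which leaves Entpd1.

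Batf had a signal of 388.4 with cholesterol and 335.6 in untreated cells, at 3.19 and 2.58 times the control percentile of each array. The log2 difference was 0.21, a 1.16-fold higher level. Of 400 genes of like signal, 293 lay below Batf and 107 above, around a median of 0.08 and a central 95% from -0.33 to 0.54. Its closest genes in both signals were the ubiquitin ligase gene Ubr1 (distance 0.0064), the exchange factor gene Cyth2 (0.0066) and Lrwd1, which encodes a partner of the origin recognition complex (0.017).

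The related factor BATF3, known for dendritic cells and for memory CD8 cells, was not like Batf. Batf3 had a signal of 206.3 with cholesterol and 317.2 without, a log2 difference of -0.62 and a 1.54-fold lower level. The Batf difference minus that of Batf3 was 0.83. Batf2 (-0.45) was inside the control range on both arrays. Batf3 is a defining gene of type 1 dendritic cells, whose marker Clec9a had 7.65 with and 6.46 without cholesterol, far inside the negative control range, as was Xcr1.

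The genes that encode the partners of BATF were mostly lower. Of 9 measured JUN, FOS and IRF genes, 8 passed the filter, 1 higher and 7 lower, with a median of -0.29. Of the 8, 1 was more than 1.5-fold lower (3 after quantile normalization or loess). Beside them, 40.4% of all genes past the filter were lower, 2.72% more than 1.5-fold, around a median of 0.05. The 7 lower include Fosb, within the control range on both arrays, and Jun at -0.05. Irf4, which binds composite DNA sites together with BATF and JUN, had 551.1 with cholesterol and 678.6 without, a difference of -0.30, which is 0.51 below that of Batf. Irf8, its relative in B cells, dendritic cells and effector CD8 cells, had 372.8 and 574.9 in the same order, a difference of -0.62. Fosl1 (-0.56) and Fosl2 (-0.51), FOS-like bZIP genes, and Junb (-0.19) also lay on the lower side. The B cell sum and the joint macrophage and dendritic cell sum given beside Eomes move the same way as Irf8 and Batf3, and their part was not tested. Most of that joint sum came from Cd74 and H2-Aa, while Clec9a and Xcr1 were within the control range on both arrays.

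**Figure D3:**
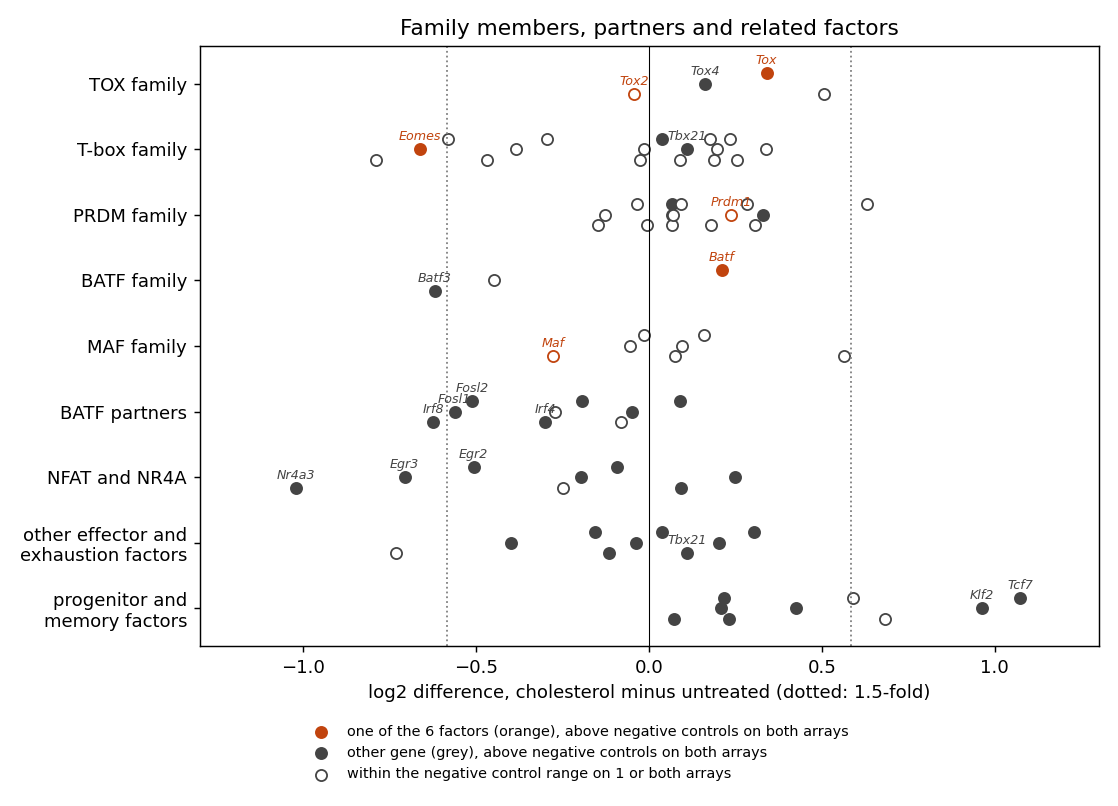
Log2 difference (cholesterol minus untreated, x axis) of the measured members of 9 gene lists, with the 6 factors in orange, filled points above the negative controls on both arrays, open points within their range on 1 or both, and dotted lines at 1.5-fold. Eomes and Tbx21 of the T-box family stand apart at -0.66 and 0.11, and Batf and Batf3 of the BATF family at 0.21 and -0.62.

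Prdm1 had a signal of 94.4 with cholesterol and 80.1 in untreated cells, both within the negative control range. The log2 difference was 0.24, and 294 of 400 genes of like signal lay below it and 106 above, with a central 95% from -0.70 to 0.73. Of these 400 dim genes, 41 (10.25%) were past 1.5-fold, against 9 of the 400 around Eomes, and the Prdm1 difference lay inside that spread. Its nearest genes in both signals were Klhl2 (distance 0.011), Polg2, a subunit gene of the mitochondrial DNA polymerase (0.012), and Zfp708 (0.015). Of the plasma cell genes that BLIMP-1 goes with, Sdc1 had 92.5 and 90.5 in the same order, and Mzb1 and Jchain also stayed within the control range on both arrays.

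Other PR-domain genes showed small differences. Prdm4, a zinc finger factor, had 240.0 with cholesterol and 191.0 without, a difference of 0.33. Prdm10 and Prdm2, a histone methyltransferase gene, each differed by 0.07, with Prdm2 above the controls on the cholesterol array alone. All 6 PR-domain genes past the filter were higher, where 58.6% of all genes were, and their median of 0.07 was near the 0.05 of all genes. However, Prdm10 turned lower after loess, and the other 12 of the 15 measured, Prdm1 included, lay within the control range on both arrays.

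Genes that BLIMP-1 is reported to repress in lymphocytes showed no shared direction. Of 10 measured, 5 passed the filter, 3 higher and 2 lower, with a median of 0.06. Over all genes past the filter, 58.6% were higher and 40.4% lower, with a median of 0.05. By signal, 2 of the 5 were more than 1.5-fold higher (Tcf7 and Id3) and 1 lower (Pax5), beside 3.22% and 2.72% of all genes. With bounds for signals in the control range, Tcf7 alone was past 1.5-fold. Tcf7, which encodes TCF-1 of memory and progenitor exhausted cells, had 972.2 with cholesterol and 462.1 without, a 2.10-fold higher level. Id3, an inhibitor of E proteins, had 123.3 and 76.9 in the same order, above the controls with cholesterol only. Pax5, a B cell factor, had 37.5 and 68.6, within the control range on both.

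Maf was the dimmest of the 6, with 41.0 with cholesterol and 49.7 in untreated cells. It passed the brightness filter through the untreated array alone, and both signals were well inside the negative controls, of which 83.1% lay below it with cholesterol and 85.5% without. The log2 difference of -0.28 had 95 of 400 genes of like signal below it and 305 above, with a central 95% from -0.77 to 0.75. The difference lay inside the spread of these dim genes, and the nearest in both signals were the olfactory receptor gene Olfr283 (distance 0.027), the WNT receptor gene Fzd9 (0.034) and Armc6 (0.036). The other 6 MAF genes were inside the control range on both arrays too.

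Among genes that c-MAF acts on in T cells, Il4, Il10, Il21 and Il22 were inside the control range on both arrays. Icos, a costimulatory receptor gene, had 1991 with cholesterol and 1808 without, a difference of 0.14. Macrophages also express Maf. Of the 14 macrophage and dendritic cell markers, Csf1r, Adgre1, C1qa, C1qb, C1qc and 6 others lay within the control range on both arrays, and Cd68, Cd74 and H2-Aa lay above it on both.

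**Figure D4:**
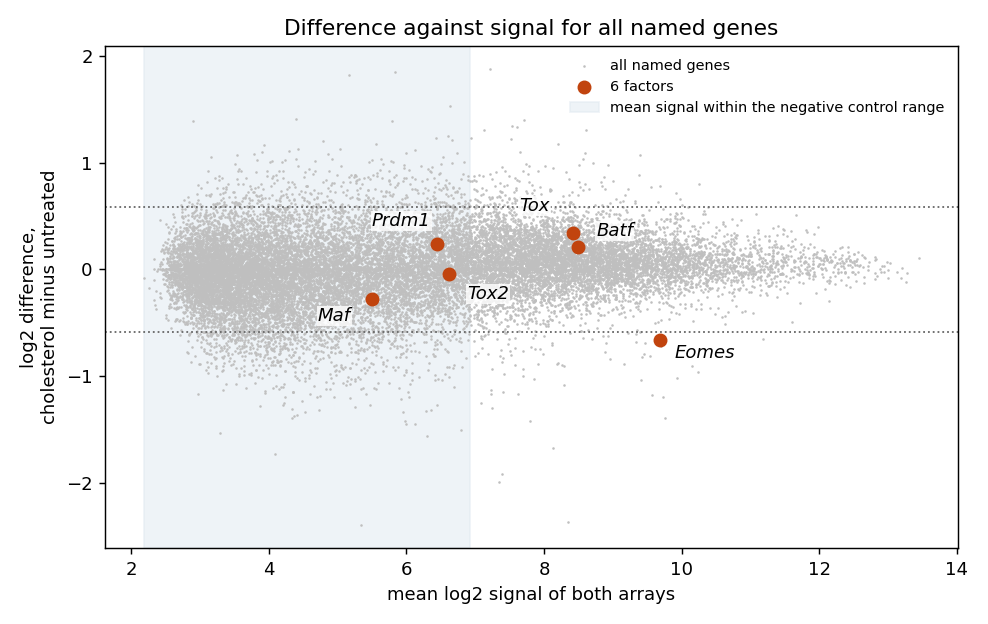
Log2 difference (cholesterol minus untreated, y axis) against the mean log2 signal of both arrays for all 21877 named genes (grey) and the 6 factors (orange), with dotted lines at 1.5-fold and shading where the mean signal is within the negative control range. Eomes lies below the dense band at its signal, while Maf, Prdm1 and Tox2 lie in the shaded region.

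The remaining factors of effector, memory and progenitor cells place the 6 in a wider frame. Of 9 naive, memory and progenitor factors, all were higher, where 58.6% of the genes past the filter were, and 8 passed the filter, with a median of 0.33. By their signals 3 of the 8 were more than 1.5-fold higher, and 2 (Tcf7 and Klf2) with bounds for signals in the control range, which leaves out Id3. Over all genes past the filter the shares were 3.22% by signal and 1.17% with bounds. Klf2, which keeps T cells circulating, was 1.95-fold higher, at 307.5 with cholesterol and 157.7 without. Of 9 other effector and exhaustion factors, 4 were higher and 5 lower (3 and 6 after quantile normalization or loess), with a median of -0.04. In that group Id2, which blocks E proteins in effector cells, differed by -0.40 and Stat4, the signal carrier of interleukin 12, by 0.30. Zeb2, a factor of terminal effector cells, had 37.2 and 61.8 in the same order, both within the control range.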

How the data were processed

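Total RNA was labelled with biotin for whole-transcript arrays, per the labels' protocols. The authors deposited an intensity per probe set and array on a linear scale, and no source used here gives the background correction or normalization behind it. The ratio the authors deposited equalled cholesterol over untreated signal for all 22206 annotated probe sets within 1e-09. The value table of the series held identical intensities (largest difference 0).

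Of the annotated probe sets, 27 with symbols turned into dates, 3 without a symbol and 1 naming a symbol pair were left out. The brightest probe set by mean log2 signal stood for each of the 21877 genes. Genes entered the counts when the brighter array reached 47.4. A fold against an array within the negative control range is a bound, the brighter signal over the 95th percentile of that array's 5222 negative controls, and genes within it on both arrays get none. Counts past 1.5-fold take the signals as deposited unless bounds are named. Genes of like signal were the 400 nearest in mean log2 signal, 200 to each side.

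The members and lists were chosen with earlier results of these data known. Named were the 6 members, the 3 nearest genes of each, family genes above the controls, the 3 largest differences past the filter in each other list, and Tbx21, Tcf7, Nr4a3, Irf4, Junb, Pdcd1, Lag3 and Havcr2. Other names were chosen after their values were seen. Alternatives were centring, quantile normalization, loess, a pseudocount of 50, the mean of probe sets, other windows and other filters. The procedure was tested on simulated data. Python 3.11.15, pandas 2.3.3, statsmodels 0.14.6 and matplotlib 3.10.9 were used.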

Additional observations from a re-analysis of the deposited data

How the results depend on the processing

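No paired analysis was possible because each group holds 1 array, and for the same reason no replicate was left out. Under centring, quantile normalization, loess, the mean of probe sets and a pseudocount of 50, the Eomes log2 difference ran from -0.73 to -0.63 and stayed past 1.5-fold, that of Tox from 0.26 to 0.37, of Batf from 0.13 to 0.24, of Prdm1 from 0.15 to 0.27, of Maf from -0.28 to -0.13 and of Tox2 from -0.08 to -0.01. Each kept its sign, and each has 1 probe set, so the mean of probe sets changed none of them. The median over the 6 ran from 0.03 to 0.21, the highest over the 3 factors above the controls, an alternative chosen after seeing the data.

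Against the 99th percentile of the negative controls (855.1 with cholesterol and 916.9 without), 0 factors were above on both arrays, and Eomes was above on the untreated array alone. The count of genes more than 1.5-fold higher moved from 365 to 100 with a pseudocount of 50, to 597 with no filter and to 209 with the brighter array above the controls. The count lower moved from 308 to 85, 856 and 106 under the same settings. The percentile among genes of like signal was 84.0 for Tox, and 89.0 with 100 neighbours, 87.6 with 1000 and 88.75 with neighbours taken on the untreated array. With 100 neighbours it was 31.0 for Tox2 (36.75 with 400) and 68.0 for Batf (73.25 with 400). Of 168 recomputed values, 156 moved by less than the median absolute difference of genes of like signal (for a list's median, of all genes past the filter), the 95% binomial interval of a percentile or 1.5 times for a count. Some of the 156 could not move. The mean of probe sets leaves a factor with 1 probe set as it is, and centring shifts all genes alike, which keeps percentiles. For Prdm1 the allowed move of 0.22 was nearly as large as its difference of 0.24. The tally is therefore no measure of robustness. Signal over background limits Tox2, Prdm1 and Maf.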

Other observations

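Among the 294 transcription factor genes above the negative controls on both arrays, the ends of the ranking held genes the text has not yet described. They are named by rank, after their values were seen. Irf7, the amplifier of type I interferon responses, had 604.1 with cholesterol and 351.6 without, and was 3 from the highest, after Tcf7 and Klf2. E2f2, a cell cycle factor of T cells, followed with 1272 and 803.6 in the same order, a difference of 0.66. At the lower end, Lmx1b, a LIM homeobox gene of limb and brain, ranked 4 from the lowest with 126.8 with cholesterol and 198.8 without, close to the control limit. Rel, which encodes the NF-kappaB subunit c-Rel of activated lymphocytes, had 659.7 and 934.0 in that order, a difference of -0.50. Xbp1, a factor of secretory cells and of the unfolded protein response, had 1817 and 2413, a difference of -0.41.

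For 29 genes with a pair of probe sets above the negative controls on both arrays, the 2 log2 differences lay a median of 0.06 apart, with a 95th percentile of 0.50. For 1 of the 29 the disagreement exceeded the Eomes difference of 0.66 in size. This spread covers probe sets on the same arrays and not separate cultures.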
